A study of Homo sapiens with 6 samples.

Results

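The MX and GBP genes encode interferon-induced GTPases. Those described here are MX1, MX2, GBP1, GBP2, GBP3 and GBP5, which were picked by gene symbol and are 6 of the 12227 genes listed in the expression table. They were measured by RNA-seq in PC3, an established human cell line from a bone metastasis of prostate cancer. The 3 control libraries carried a control short hairpin RNA (shRNA) and are labelled wild type. The other 3 libraries carried an shRNA against VprBP, also called DCAF1, a substrate receptor of a cullin-RING ubiquitin ligase, and are labelled VprBP knockdown. All 6 libraries came from the same line, grown in DMEM with serum, and no interferon or other agent is named in the labels. The labels do not say whether the numbers 1 to 3 mark separate cultures, separate hairpins or repeat libraries, so the p-values measure only the spread between these libraries, which may be technical.

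MX proteins are dynamin-like GTPases that assemble into oligomers and block viruses inside the cell. MX1 acts on many RNA viruses, including influenza virus, and MX2 acts on HIV and herpesviruses at the nuclear pore. Guanylate-binding proteins (GBPs) are large GTPases that coat pathogen vacuoles and bacterial surfaces, and several of them are anchored to membranes by a prenyl group. Type I interferon induces MX genes through factors that include STAT2 and IRF9 and bind interferon-stimulated response elements, and GBP genes respond to interferon gamma as well as to type I interferon.

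The deposited values are scaled expression values per gene, neither whole counts nor length-normalised, and they are compared here as deposited. From the size of the smallest steps between values, the libraries held an estimated 22981887 to 39633903 reads on listed genes. Within a group the median difference between 2 libraries was 4.41% to 6.54% over genes, and between groups it was 14.9% to 16.8%. The targeted gene DCAF1 was at 79.4, 78.5 and 78.7 in the control libraries and at 38.5, 41.1 and 40.2 in the VprBP shRNA libraries, so 50.6% of the control level remained. On the log2 scale DCAF1 fell by 0.97 (SE 0.05), with a limma adjusted p of 3.56e-11. VprBP replicate 3 differed by 6.15% and 6.54% from replicates 1 and 2, which differed by 4.45% from each other.

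In the VprBP shRNA libraries 5 of the 6 genes rose and none fell at a limma adjusted p under 0.05, computed over all listed genes. MX1 and MX2 rose by more than an order of magnitude, GBP1 and GBP5 about 5-fold and GBP3 about 2-fold, whereas GBP2 did not pass the test and lay slightly below control. At this threshold 33.0% of all listed genes were called higher and 27.8% lower, 60.9% in all, so a call by itself is common in this comparison. A call together with a rise of at least 2-fold was made for 1.85% of listed genes, and all 5 of the called MX and GBP genes were among these. The same 5 genes had every VprBP shRNA library above every control library, as did 35.1% of all genes, and GBP2 had every VprBP shRNA library below control, as did 29.6%, so the groups did not overlap for 64.8% of genes. In a limma test against a fold of 1.5, which called 2.42% of all genes higher, the same 5 members were called. The median log2 fold change of the 6 genes was 2.01, beside 0.02 over all listed genes. Every listed gene had an estimated 150 reads or more in some library. MX2 and GBP5 reached this in VprBP shRNA libraries only, so their listing depended on their high values there. The counts and the median above include them and are not independent of that listing. Because each library pools many cells, more expressing cells and more RNA per cell cannot be told apart.

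**Figure D1:**
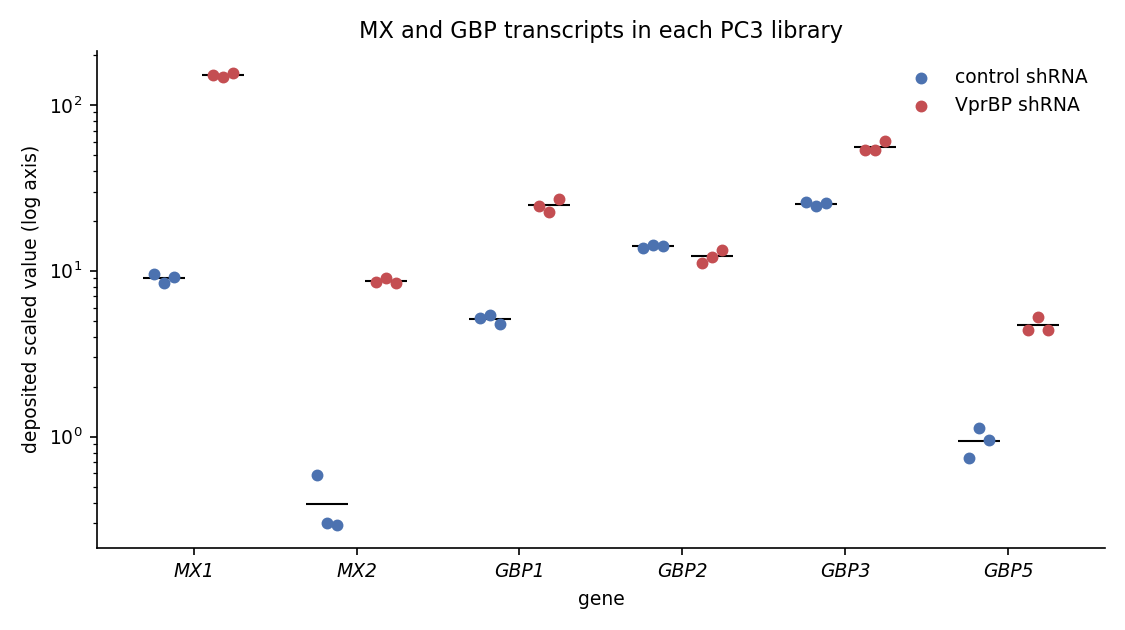
Deposited expression value (log axis) of MX1, MX2, GBP1, GBP2, GBP3 and GBP5 in each library, with control shRNA and VprBP shRNA libraries as separate points and group means as horizontal lines. MX1 moved from a mean of 9.05 to 151 and GBP2 from 14.0 to 12.2, and the groups overlap for none of the 6 genes.

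MX1, the broadly antiviral member (ENSG00000157601.15, chromosome 21, 41420020 to 41470071, plus strand, hg38), was at 9.53, 8.43 and 9.19 in the control libraries. In the VprBP shRNA libraries it was at 152, 147 and 155. The VprBP shRNA values were close to each other, with a coefficient of variation of 2.58%, and the lowest of them was far above the highest control value. The mean of 9.05 ± 0.560 (SD, n = 3) became 151 ± 3.90 (SD, n = 3), a log2 fold change of 3.99 with a 95% confidence interval of 3.87 to 4.11 in limma. Ranked by log2 fold change, MX1 was number 5 of the 12227 genes. An exact two-sided permutation test gave p = 0.1 for MX1 and for each of the other 5 genes, the smallest value that 3 libraries against 3 allow.

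The RefSeq promoter windows (GRCh38.p14, 250 bases before to 50 after a start site) hold 3 start sites of MX1. They are shown for the GAAA repeats that interferon-stimulated response elements contain, in capitals, each read on the gene's strand and with 10 flanking bases on either side. Both strands were searched for GAAA, 1 or 2 bases of any kind, and GAAA again. The middle start site has a pair of them, shown as 1 stretch at chr21:41426116-41426189 that ends 50 bases before the start, and the first start site has a match at chr21:41420559-41420588 just after it. The first window holds a further match that begins 19 bases before its start, and the third window holds 1 that begins 196 bases before its start.
MX1 middle start: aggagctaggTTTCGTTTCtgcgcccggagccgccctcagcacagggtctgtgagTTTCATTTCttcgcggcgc
MX1 first start: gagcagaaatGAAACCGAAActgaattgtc
The matches of the middle start site begin 113 and 68 bases before it and have 1 base between the repeats, on the reverse strand. The match of the first start site has 2 bases between them, and it overlaps a match with 1 base. Repeats with 2 bases between them occur in 3.57% and repeats with 1 base in 3.12% of the 35116 promoter windows of this length, and 6.40% hold either. A match describes letters in the window and is not a measured binding site.

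MX2, the nuclear-pore-associated relative (ENSG00000183486.14, chromosome 21, 41361999 to 41409393, plus strand), was the least abundant member in control cells. It was at 0.584, 0.302 and 0.292 in the control libraries, which correspond to an estimated 19, 7 and 7 reads. In the VprBP shRNA libraries it was at 8.57, 9.07 and 8.48, an estimated 337, 283 and 193 reads. The control libraries therefore varied by 42.2% (coefficient of variation), beside 33.6% from read counting alone, and the VprBP shRNA libraries by 3.67%. The ratio of the means was 22.2, the highest of the 6 genes, but the log2 fold change after adding 0.5 was 3.38 (SE 0.19, limma adjusted p = 2.23e-10). That value is below MX1's because the added 0.5 exceeds most of the control values, and it ran from 2.16 with 2 added to 4.21 with 0.1 added.

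GBP1, which binds bacterial lipopolysaccharide and recruits other GBPs (ENSG00000117228.11, chromosome 1, 89051882 to 89065360, minus strand), was at 5.19, 5.39 and 4.80 in the control libraries. It was at 24.7, 22.6 and 27.0 in the VprBP shRNA libraries. All VprBP shRNA values lay above all control values, and their spread of 8.82% exceeded the 3.69% that counting gives. The mean went from 5.13 ± 0.304 to 24.8 ± 2.18 (SD, n = 3 each), 4.83-fold, with a log2 fold change of 2.16 (SE 0.09, limma adjusted p = 1.07e-11). This placed it at number 45 of all genes.

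GBP3, the most abundant member in control cells (ENSG00000117226.12, chromosome 1, 89006679 to 89022894, minus strand), was at 26.1, 24.5 and 25.5 in the control libraries. It was at 53.4, 53.6 and 60.8 in the VprBP shRNA libraries. Replicate 3 was the highest of these, as it was for MX1, GBP1 and GBP2. Means of 25.4 ± 0.784 and 55.9 ± 4.21 (SD, n = 3 each) gave a 2.21-fold rise and a log2 fold change of 1.12 (SE 0.06, limma adjusted p = 1.62e-10).

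GBP1 and GBP3 lie side by side, and their promoter windows are alike, so the shared stretch is shown. A local alignment of the windows had 117 identical bases in 156 columns, an identity of 75%. Their longest common run, 19 bases, holds GAAA repeats with 2 bases between them on the reverse strand (capitals). The regions are chr1:89065316-89065345 for GBP1 and chr1:89022845-89022874 for GBP3, both read on the minus strand.
GBP1: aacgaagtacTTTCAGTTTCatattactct
GBP3: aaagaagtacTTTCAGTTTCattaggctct
Common run: gaagtacTTTCAGTTTCat
The match begins 127 bases before the annotated start of GBP1 and at base 3 counted from that of GBP3. The GBP3 window also holds TTCNNNGAA, the letters of a STAT site, beginning 15 bases before the start at chr1:89022863-89022891, shown because STAT sites carry the interferon gamma response.
GBP3 STAT letters: actgagtcacTTCCTTGAAagaagtactt
These letters occur in 7.66% of all promoter windows, and among the MX1 and GBP1 windows they were found in the third MX1 window alone. Promoter windows were found for MX1, GBP1 and GBP3, 3 of the 6 genes.

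GBP5, a prenylated member that acts in inflammasome activation and inhibits furin (ENSG00000154451.15, chromosome 1, 89256189 to 89272860, minus strand), was at 0.738, 1.12 and 0.960 in the control libraries. It was at 4.37, 5.26 and 4.39 in the VprBP shRNA libraries. The control values rest on an estimated 24, 26 and 23 reads, and their spread of 20.5% was close to the 20.3% of counting error. The group means were 0.940 ± 0.193 and 4.67 ± 0.505 (SD, n = 3 each), a ratio of 4.97. In limma this was a log2 fold change of 1.85 (SE 0.19) with an adjusted p of 4.09e-07, and it ran from 1.18 with 2 added to 2.21 with 0.1 added.

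GBP2, which like GBP5 is prenylated and inhibits furin (ENSG00000162645.13, chromosome 1, 89106132 to 89150456, minus strand), was at 13.7, 14.3 and 14.2 in the control libraries. It was at 11.2, 12.1 and 13.3 in the VprBP shRNA libraries. The groups did not overlap, but the highest VprBP shRNA value was close to the lowest control value. The mean was 14.0 ± 0.326 in control and 12.2 ± 1.08 with VprBP shRNA (SD, n = 3 each). The log2 fold change of -0.20 (SE 0.09) had a 95% confidence interval of -0.39 to -0.02 and a limma adjusted p of 0.0576, so it did not pass the threshold. The call turned with the setting: GBP2 was called lower with median-ratio scaling (limma adjusted p = 0.0353), equal library sums (0.0366), no variance trend (0.0353) and limma-voom (0.0236). Without VprBP replicate 3, the highest of its group, the log2 fold change was -0.26 with a limma adjusted p of 0.0187. By log2 fold change GBP2 stood at number 9298, with 24.0% of all genes below it. Of the 50-base stretches of GBP2, 10.2% occur in other genes, and 9.15% in GBP7, a neighbour outside the list. The annotated exons of GBP7 overlap those of GBP2 by 621 bases on the same strand. Much of this share therefore need not be similar sequence elsewhere in the genome. GBP1 had a share close to that of GBP2, with 9.62% in other genes, 6.60% in GBP1P1 and 3.40% in GBP3. Reads from such stretches cannot be assigned to 1 gene.

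Per kilobase of transcript, the members changed places. For this comparison between genes each value was divided by the length of the longest principal transcript (GENCODE 29). In control cells the order of levels per kilobase was GBP3 (8.27 ± 0.256), GBP2 (6.33 ± 0.147), MX1 (2.61 ± 0.161), GBP1 (1.69 ± 0.10), GBP5 (0.467 ± 0.0960) and MX2 (0.129 ± 0.0545). With VprBP shRNA it was MX1 (43.6 ± 1.12), GBP3 (18.2 ± 1.37), GBP1 (8.16 ± 0.720), GBP2 (5.49 ± 0.484), MX2 (2.86 ± 0.105) and GBP5 (2.32 ± 0.251). No neighbours in either order had overlapping libraries. With the union of all exons as the length, a choice made after the values were seen, the order was the same but the control libraries of MX1 and GBP1 overlapped.

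**Figure D2:**
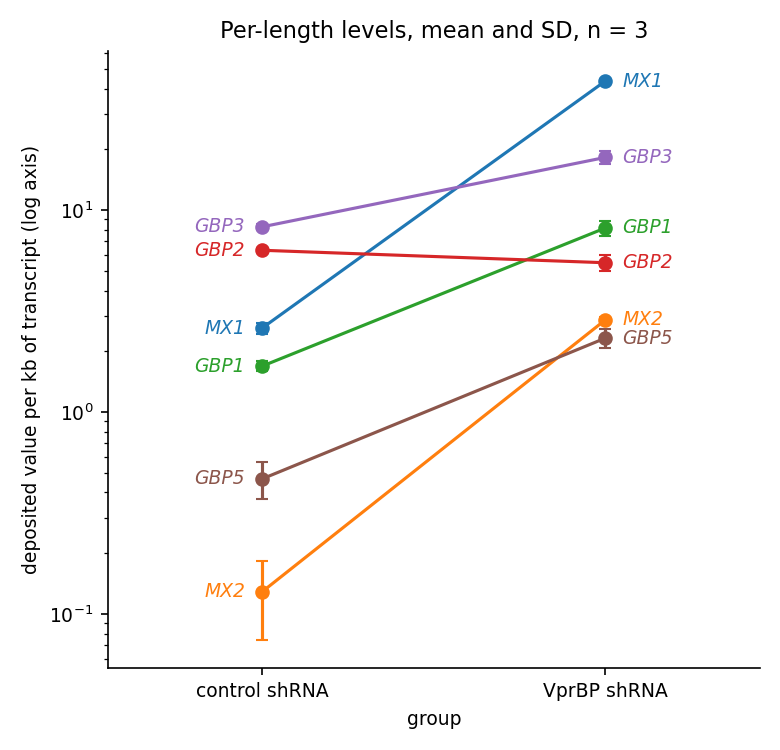
Expression value per kilobase of principal transcript (log axis) of the 6 genes in each group, with points and error bars for the mean and SD of 3 libraries and lines joining the means of a gene. MX1 moved from the third place at 2.61 to the first at 43.6, and GBP2 from the second place at 6.33 to the fourth at 5.49.

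The genes also changed relative to each other within a library. Of the 15 pairs of members, 14 had log2 ratios that did not overlap between the groups, as did 65.4% of all pairs of listed genes. Each of the 14 had an exact two-sided permutation p of 0.1, the smallest possible, and a Benjamini-Hochberg adjusted p of 0.107 over the 15 pairs. MX1 stood at 0.357 of GBP3 in control and at 2.70 times GBP3 with VprBP shRNA. GBP1 stood at 0.365 of GBP2 in control and at 2.03 times GBP2 with VprBP shRNA, a change in log2 ratio of 2.36. Between the neighbours GBP1 and GBP3 the change in log2 ratio was 1.04. GBP1 and GBP5 were the pair whose log2 ratios overlapped between the groups, with a change of 0.31 and an exact permutation p of 0.2. This turned on the value added: with 2 added the GBP1 to GBP5 change was 0.72 without overlap, and that of GBP3 to GBP5 went from -0.73 to -0.10 with overlap. The ratio of MX1 to MX2 has no stable direction, since its log2 change was 0.61 with 0.5 added and -0.16 with 0.1 added.

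**Figure D3:**
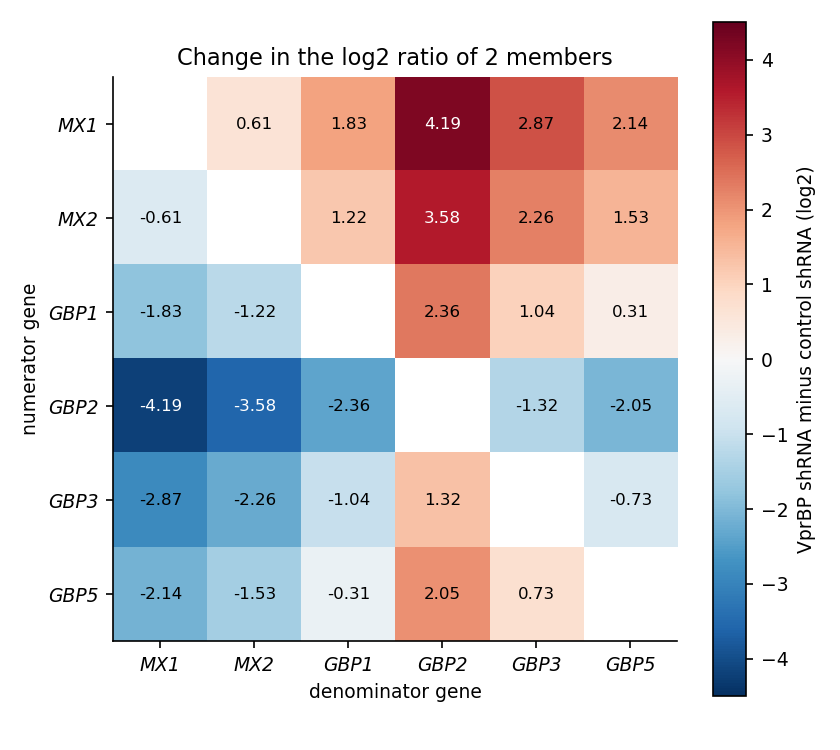
Change in the log2 ratio between members (VprBP shRNA minus control shRNA, 0.5 added to each value) as a colour scale, with the numerator gene in rows and the denominator gene in columns, so each of the 15 pairs appears once with either sign. The change is 4.19 for MX1 over GBP2 and 0.31 for GBP1 over GBP5.

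The GBP members lie in 1 cluster on chromosome 1 and the MX genes next to each other on chromosome 21, and listed genes around them were called in both directions. Beside the GBP cluster the listed neighbours KYAT3, RBMXL1 and LRRC8B were not called. GTF2B, a general transcription factor, was 1.28-fold higher (limma adjusted p = 4.36e-04). PTGES3P1, a pseudogene lying directly beside GBP2, went from 47.2 ± 3.23 to 54.3 ± 2.03 (limma adjusted p = 0.00572), while GBP2 itself was not called. LRRC8C, a subunit of volume-regulated anion channels, lies 360 kb beyond the cluster and rose 2.15-fold from 6.66 ± 0.704 to 14.3 ± 1.00 (limma adjusted p = 2.38e-07), and LRRC8D beyond it fell by 0.14 on the log2 scale.

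At the MX locus TMPRSS2, an androgen-regulated serine protease, lies on the opposite strand and overlaps the 3′ end of MX1 by 5772 bases (chromosome 21, 41464300 to 41470071). It was at 32.6, 30.9 and 30.1 in control and at 18.1, 20.1 and 20.3 with VprBP shRNA, and so fell while MX1 rose. On the log2 scale TMPRSS2 fell by 0.67 (SE 0.07), with a limma adjusted p of 3.90e-07. In the control libraries MX1's estimated reads missed a whole number by 0.025, 0.455 and 0.314 (tolerance 0.02 reads). Those of the other 5 members were whole in all 6 libraries. In the control libraries MX1 and TMPRSS2 together gave whole sums of 1372, 912 and 941 reads. In the VprBP shRNA libraries neither MX1 nor the sum was whole at this tolerance, missing by 0.024 to 0.046 reads. MX1 had an estimated 3526 to 5959 reads there. At so many reads, rounding of the values and of the estimated step limits the check. For MX1 and the sum it therefore cannot decide whether MX1's reads were whole in these libraries. TMPRSS2 alone, with fewer reads, had an estimated 712.0, 628.0 and 462.0 there, beside 1061.98, 716.54 and 720.69 in control. The sources used here do not give the strand setting of the counting, so reads in the overlap cannot be placed on 1 of the genes. BACE2, on the other side of MX2, was at 146 ± 3.80 and 142 ± 0.785 and was not called. On the far side of TMPRSS2, RIPK4, a kinase, rose from 138 ± 4.59 to 200.1 ± 9.24 (limma adjusted p = 1.40e-08). The gene ENSG00000289513 went from 1.08 ± 0.485 to 3.94 ± 0.511, a log2 fold change of 1.52. That gene reached the 150 reads of a listed gene with VprBP shRNA only, so its listing depended on its high values there. PRDM15 fell by 0.55 on the log2 scale. Farther away, HMGN1 rose 1.20-fold and GET1 fell by 0.27 on the log2 scale.

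**Figure D4:**
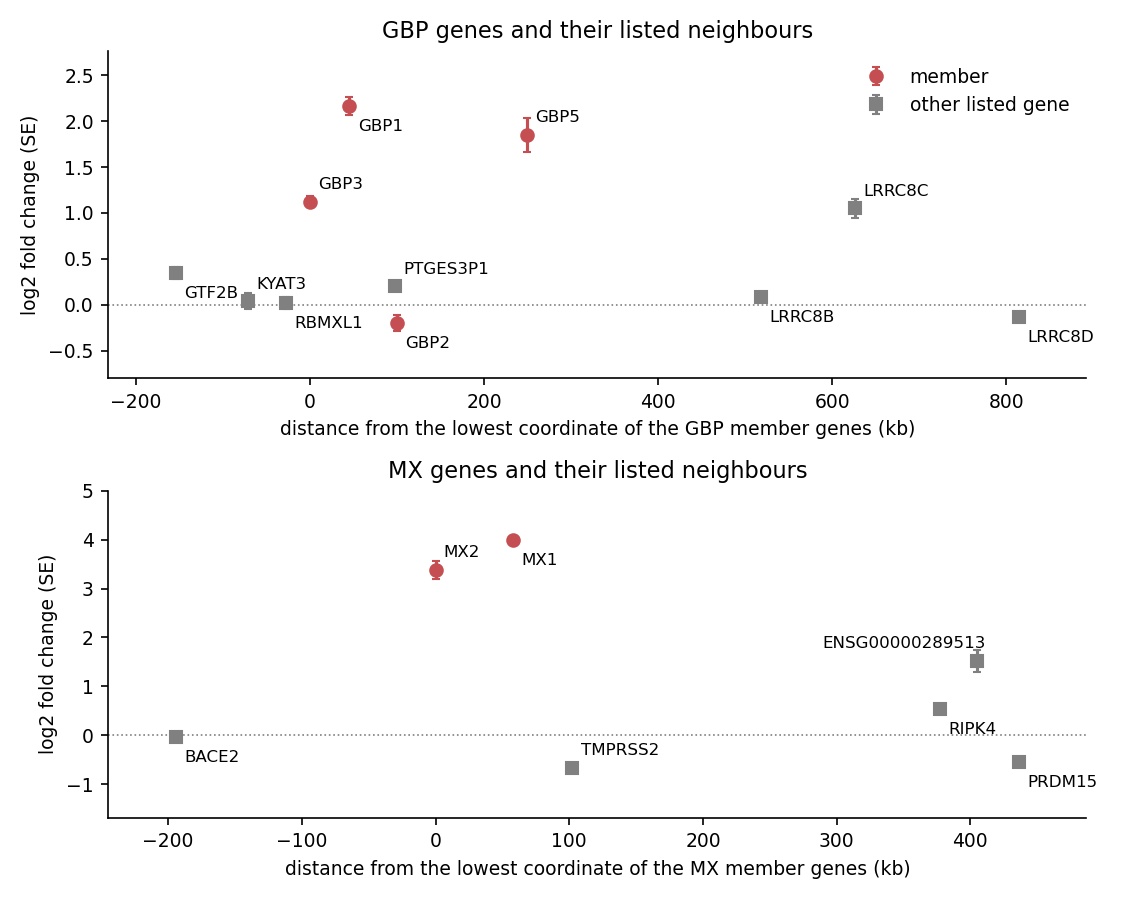
Log2 fold change with its SE (VprBP shRNA over control shRNA) against distance in kilobases from the lowest coordinate of the GBP members (upper panel) or of the MX genes (lower panel). MX1 and MX2 stand at 3.99 and 3.38 between BACE2 at -0.04 and TMPRSS2 at -0.67, and GBP2 at -0.20 lies between GBP1 at 2.16 and GBP5 at 1.85.

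Among the regulators of MX and GBP genes, STAT2 and IRF9 both rose. Of 17 listed genes for interferon signalling and transcription factors, 10 were called higher and 1 lower, beside 33.0% and 27.8% of all genes, with a median log2 fold change of 0.19. IRF9, a DNA-binding factor, went from 8.47 ± 1.40 to 64.4 ± 1.12, 7.61-fold, a larger ratio than those of GBP1, GBP3 and GBP5. STAT2 rose 1.63-fold and IRF1, a factor that acts on GBP promoters, rose 2.31-fold. The receptor chain IFNGR2 fell from 86.0 ± 2.67 to 57.7 ± 2.10, whereas the receptor chain IFNGR1 rose from 30.3 ± 3.20 to 38.6 ± 1.19. Of 12 listed negative regulators 6 were called higher and 3 lower (median 0.16), and USP18, which shuts off the type I receptor, rose 3.03-fold. None of the 9 interferon genes looked for was in the table, in which every gene has an estimated 150 reads or more in at least 1 library.

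Genes known to respond to the interferons moved to different extents. Of 25 listed genes known for type I interferon responses, 24 were called higher, beside 33.0% of all genes. Their median log2 fold change was 2.57, which is between the values of GBP1 and MX2. Examples are IFI6 at 25.6-fold and RSAD2 at 39.2-fold, beside MX1 at 16.7-fold. RSAD2 had a control mean of only 0.199, and after adding 0.5 its log2 fold change was 3.57, below the 3.99 of MX1. Some of these genes, such as RSAD2 and IFI44 (control mean 1.60), reached the 150 reads of a listed gene in VprBP shRNA libraries only. Their listing depended on high values there, so the count and median of this list are not independent of it. ISG20 was not called. Of 9 listed genes known for interferon gamma responses, all 9 were called higher, but their median was 0.44 and none reached 2-fold, where GBP1, GBP3 and GBP5 all did. These 9 are a minority of the 22 interferon gamma genes looked for, whereas 25 of 28 type I genes were in the table. The largest rise among the 9 interferon gamma genes was that of SECTM1, at 1.99-fold. In the same comparison 9 of 12 reference genes were called higher with a median of 0.28.

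**Figure D5:**
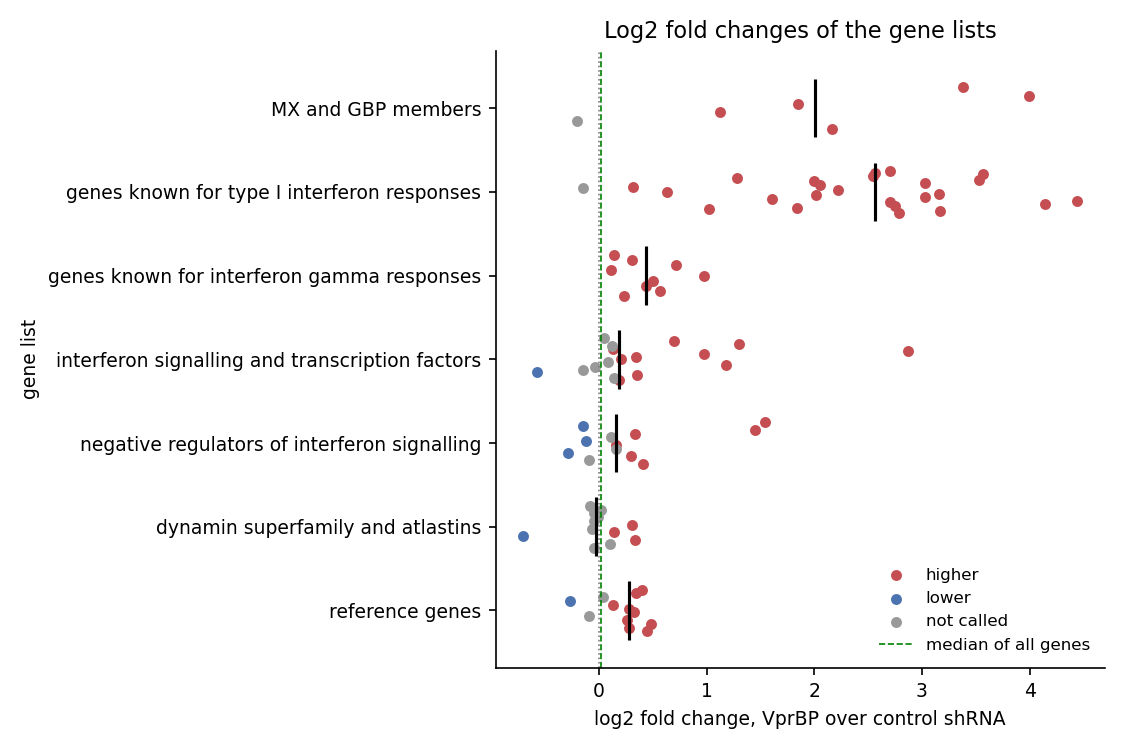
Log2 fold change of each listed gene by gene list, coloured by call, with the list's median as a black bar and the median of all genes as a dashed line. The MX and GBP genes have a median of 2.01, between 2.57 for genes known for type I responses and 0.44 for those known for interferon gamma responses.

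Other large GTPases of these families were looked at in the same way. Of the other GBPs and the IRG family only IRGQ was listed, and it was not called (log2 fold change -0.13). Of 12 listed dynamin superfamily genes and atlastins, 3 were called higher and 1 lower, beside 33.0% and 27.8% of all genes, with a median log2 fold change of -0.03. DNM1, a dynamin of endocytosis, fell by 0.70 on the log2 scale, and the largest rise was 0.33 for ATL3, an atlastin of the endoplasmic reticulum.

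Genes whose products act with GBPs and MX proteins were called in both directions. Of all genes 33.0% were called higher and 27.8% lower, 60.9% in all. By the total called, the prenylation and inflammasome lists lay near that share. The GBP1 partners and the convertases lay above it, and the MX1 partners and MX2 cofactors below it. All of these lists are short. Of 12 listed GBP1 partners 10 were called higher and 1 lower (median 0.32). TUBB3, a tubulin, rose 2.96-fold, and PIM1, a kinase that phosphorylates GBP1, fell from 91.1 ± 1.34 to 58.2 ± 1.97. Of 8 genes for prenylation and CaaX processing 4 were called higher and 1 lower (median 0.18), with FNTA, a farnesyltransferase subunit, at 1.23-fold. Of 9 listed inflammasome and pyroptosis genes 5 were called higher and 1 lower (median 0.18), with CASP4, a caspase that GBPs recruit to lipopolysaccharide, at 1.46-fold. FURIN, the protease that GBP2 and GBP5 inhibit, fell from 195 ± 6.08 to 161 ± 3.95, and of the 3 listed proprotein convertases 1 was called higher and 2 lower (median -0.22). Of 11 nuclear pore and capsid cofactors of MX2, 2 were called higher and 2 lower (median -0.01). Of 6 listed MX1 partners 2 were called higher and 1 lower (median 0.04), with DDX39A, an RNA helicase, at 1.49-fold.

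By a rule of likeness, the Euclidean distance between log2 profiles set to their control mean over the 6 libraries, the genes nearest to MX1 were MT2A, IFI44 and RSAD2. Their distances were 0.302, 0.667 and 0.737, among 12181 genes. MT2A, a metallothionein, went from 19.0 ± 0.666 to 329 ± 28.1, 17.3-fold. Among the nearest to GBP1 were CCNE2, a cyclin, at a distance of 0.189 and the long non-coding RNA LINC03033 at 0.200. CCNE2 rose 4.99-fold and LINC03033 4.40-fold.

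No listed marker of leukocytes, fibroblasts or endothelium was called higher. The only listed leukocyte marker of 10, CD68, had summed levels of 25.6 to 26.8 in control and 25.6 to 26.9 with VprBP shRNA. Of 7 fibroblast markers COL1A1 was listed, at 24.4 ± 0.900 and 24.7 ± 4.05, and of 5 endothelial markers PECAM1, which fell from 54.2 ± 1.14 to 23.3 ± 0.695. All 7 epithelial markers were listed, 3 called higher and 3 lower, beside 33.0% and 27.8% of all genes. KRT8 rose 1.64-fold and KRT18 1.52-fold, CLDN4 fell by 0.43 on the log2 scale, and the most abundant, KRT19, was at 825 and 829.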

How the data were processed

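RNA-seq values for PC3 libraries were taken from 1 deposited table. Per the submitters' processing notes Partek and hg38 were used, and nothing more on the aligner, the counting or the normalization was given in the labels. The deposited signal values are not whole numbers. Reads per library were estimated from the smallest step between values, and 55.0% to 65.0% of values were whole multiples of it within 0.02 reads. The highest values are rounded too coarsely for this check, so rounding partly sets this share. The reported fit used no count model, and limma-voom on estimated reads was run as an alternative. The confidence intervals of read counts cover counting error only.

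The values, with 0.5 added, were log2 transformed and fitted with limma 3.58.1 (trended variance, R 4.3.3) over all 12227 genes, 3 libraries against 3, with Benjamini-Hochberg adjusted p-values. Python 3.11.15 and SciPy 1.17.1 gave the exact permutation tests and distances. GENCODE 29 gave transcript lengths and RefSeq (GRCh38.p14) the promoter windows, and coordinates of genes are those of the deposited table. No column of per-sample values was unmapped.

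The genes, the lists and the tests were chosen with earlier results of these data known, and the motifs after their windows were seen. Genes named outside the members are, by rule, DCAF1, up to 3 called genes per list and direction with the largest change and a mean of at least 1, the most abundant marker of other cell types, genes at or flanking the loci, and the 3 profiles nearest to MX1 and GBP1. ISG20, IRGQ, KRT19, STAT2 and IFNGR1 fall outside the rule and were chosen after their values were seen. Some genes that meet the rule are not reported here. The alternatives were 2 pseudocounts, 2 scalings, a mean filter, no variance trend, limma-voom, a replicate block, a test against 1.5-fold and each library left out. Simulated data were used to test the fit.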

Additional observations from a re-analysis of the deposited data

How the results depend on the processing

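MX1, MX2, GBP1, GBP3 and GBP5 were called higher in every one of the 15 alternative fits that tested them. Their log2 fold changes ran from 3.79 to 4.05 for MX1, 2.16 to 4.45 for MX2, 1.91 to 2.25 for GBP1, 1.06 to 1.16 for GBP3 and 1.18 to 2.31 for GBP5. With a mean of at least 5 required, MX2 and GBP5 were not tested, so 3 members were called, all 3 higher. GBP2 depended on the setting: it was called lower, making 1 member called lower where the reported fit had 0, with median-ratio scaling (log2 fold change -0.23), equal library sums (-0.22), no variance trend (-0.20) and limma-voom on estimated reads (-0.25). Leaving out each library in turn gave -0.26 to -0.14 for GBP2 and 0 to 1 members called lower. Its limma adjusted p ran from 0.0187 to 1.00 over all alternatives. A test against a fold of 1.5 called 651 genes, 296 higher and 355 lower, and 30 genes of the lists, where the reported fit called 7441, 4037, 3404 and 96; the MX and GBP calls were 5 in both. The log2 change of the MX1 to MX2 ratio turned to -0.16 with 0.1 added. The control reads of MX2 and GBP5 limit the precision of their fold changes.

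Deviations of same-numbered libraries from their group means correlated at 0.03, -0.18 and -0.17. Those of libraries with different numbers correlated at -0.10 to 0.22. Because each mean is over 3 libraries, these correlations depend on each other, so they cannot decide whether the libraries were paired. With the replicate number as a block 7042 genes were called, and the log2 fold change of GBP2 was -0.20 with a limma adjusted p of 0.0729.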
